A study of Mus musculus with 9 samples.

Results

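Macrophages carry surface receptors that bind modified lipoproteins, dying cells, fungal β-glucan or mycobacterial glycolipids. Several of these receptors double as the markers by which the cell type is recognised. Scavenger receptors take up oxidised lipid, the TAM receptor kinases bind phosphatidylserine on dying cells through bridging ligands, and C-type lectin receptors signal through Syk and Card9 when they meet microbial sugars. Macrophages are also the precursors of osteoclasts, the bone-resorbing cells that form when macrophages receive the cytokine RANKL.

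Transcript levels of 10 such genes were examined, chosen by symbol from the 56691 genes of the deposited table. They were the surface marker Adgre1 (F4/80), the endolysosomal marker Cd68, the scavenger receptors Msr1, Cd36 and Scarb1, the mannose receptor Mrc1, the TAM kinases Axl and Mertk, and the lectin receptors Clec7a (Dectin-1) and Clec4d. All 10 symbols were found once each. The RNA came from RAW264.7, an established mouse macrophage line grown in culture, in 3 groups of 3 libraries: untreated control, RANKL alone, and RANKL together with uridine (RANKL + UD), all harvested after 3 days. The labels give no dose, and every group is the same transformed line, so no group is a primary osteoclast culture. The value columns of the table name the RANKL libraries "Model", the word the study uses for that group.

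The libraries held 15951800 to 19746862 counted reads each. All 8 macrophage markers checked, Adgre1 and Cd68 among them, reached 1 FPKM in at least 1 library of every group, and their summed level was 9454 to 10060 FPKM in control, 2618 to 2870 with RANKL and 2272 to 2410 with RANKL + UD. Most of that sum in control was Lyz2, and the other 7 markers summed to 1608 to 1758, 1249 to 1349 and 1027 to 1107 FPKM. The sum of these 7 hides opposite shifts. After RANKL, mean Cd68 rose from 549 to 782 FPKM and mean Spi1 from 82.55 to 120.9. The rest of the 7 fell. Mean Cd14 went from 522.5 to 163.5 FPKM and Csf1r from 352.7 to 185.2. Itgam went from 72.52 to 22.82, Adgre1 from 59.4 to 10.1 and Fcgr1 from 28.26 to 1.777. The summed level of 9 osteoclast markers was 46.9 to 50.1 FPKM in control, 2641 to 2844 with RANKL and 1666 to 1703 with RANKL + UD. The 4 neutrophil and the 4 lymphocyte markers had 3 counts or fewer in every library, and the summed level was at most 1.84 FPKM for fibroblast and osteoblast markers, 0.31 for endothelial and 0.26 for epithelial markers. Of the 4 dendritic markers, Flt3 had 0 counts, while the summed level, which was mostly Itgax, was 14.2 to 14.9 FPKM in control, 40.5 to 44.0 with RANKL and 17.3 to 19.1 with RANKL + UD. In such bulk libraries, fewer cells of a type and less RNA per cell cannot be told apart. The part of these marker shifts in the results below was not tested.

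Promoter sequences are shown for 4 of the 7 members that matched a RefSeq promoter entry (GRCm38.p6, 250 bases before to 50 after the start site), because the results turn on them: Clec7a passed the test when uridine was added but not with RANKL, Clec4d the reverse, and Axl and Cd68 rose with RANKL. Each is printed 5′ to 3′ on the strand of its gene. Capitals mark matches on either strand to GAGGAA (the core bound by PU.1 and other ETS factors), TGANTCA (AP-1), TGGAAA (NFAT) or CANGTGAC (the E-box of MiT/TFE factors).
Clec7a, chr6:129472730-129473029, minus strand: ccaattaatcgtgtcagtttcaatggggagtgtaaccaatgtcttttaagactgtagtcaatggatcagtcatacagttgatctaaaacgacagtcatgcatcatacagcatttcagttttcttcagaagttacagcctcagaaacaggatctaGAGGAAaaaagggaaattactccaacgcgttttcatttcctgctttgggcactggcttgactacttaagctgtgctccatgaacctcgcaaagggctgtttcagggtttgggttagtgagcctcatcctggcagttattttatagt
Clec4d, chr6:123261857-123262156, plus strand: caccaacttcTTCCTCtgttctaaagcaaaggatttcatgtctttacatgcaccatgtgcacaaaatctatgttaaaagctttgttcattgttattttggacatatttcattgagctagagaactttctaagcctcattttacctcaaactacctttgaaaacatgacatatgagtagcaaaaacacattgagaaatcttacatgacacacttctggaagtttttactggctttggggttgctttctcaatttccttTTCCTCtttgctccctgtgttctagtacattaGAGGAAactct
Axl, chr7:25788684-25788983, minus strand: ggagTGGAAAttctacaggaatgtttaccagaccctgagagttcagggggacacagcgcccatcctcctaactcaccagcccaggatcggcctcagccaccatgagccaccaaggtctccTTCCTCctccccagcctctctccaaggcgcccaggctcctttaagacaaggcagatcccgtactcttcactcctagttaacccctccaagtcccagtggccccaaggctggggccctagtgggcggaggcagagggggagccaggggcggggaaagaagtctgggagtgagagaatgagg
Cd68, chr11:69666121-69666420, minus strand: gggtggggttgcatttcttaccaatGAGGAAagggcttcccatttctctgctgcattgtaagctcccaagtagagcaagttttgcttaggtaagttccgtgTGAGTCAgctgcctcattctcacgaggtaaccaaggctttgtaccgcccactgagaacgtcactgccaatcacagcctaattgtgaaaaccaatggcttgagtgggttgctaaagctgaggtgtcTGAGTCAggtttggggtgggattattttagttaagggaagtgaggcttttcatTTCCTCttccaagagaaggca
GAGGAA was present in 5 of the 7 promoters (Axl, Cd68, Clec4d, Clec7a and Mrc1) and in 28.3% of 32851 promoters of this length. TGANTCA occurred only in Cd68 (7.81% of all promoters), TGGAAA in Axl and Cd36 (21.4%), and CANGTGAC in Mrc1 alone (6.5%). Mertk held none of the 4 motifs in this window. Clec7a has a second entry whose start site lies 6 bases away and which holds the same match. A match is a string of letters and not evidence of binding.

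Levels were read in FPKM, counted reads scaled to transcript length and library total. In control, Cd68 was the highest at 549 ± 43.4 FPKM (SD, n = 3). It was followed by Clec4d at 94.5 ± 11.3, Msr1 at 85.5 ± 1.88, Adgre1 at 59.4 ± 3.08 and Clec7a at 53.3 ± 4.06. Below these were Cd36 at 33.1 ± 0.456, Scarb1 at 13.5 ± 1.65 and Axl at 1.68 ± 0.336. Clec4d and Msr1 overlapped between libraries, as did Adgre1 and Clec7a, so their order is not resolved. With RANKL the order changed below Cd68: Clec7a (52.0 ± 1.54 FPKM) and Msr1 (50.5 ± 2.77) overlapped at the top, and Axl (10.6 ± 0.405) and Adgre1 (10.1 ± 0.610) overlapped near the bottom. With RANKL + UD, Msr1 (49.5 ± 0.683) and Clec4d (36.9 ± 1.35) stood above Clec7a (21.5 ± 0.983), and Scarb1 (8.10 ± 0.227) overlapped with Axl (7.99 ± 0.454).

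**Figure D1:**
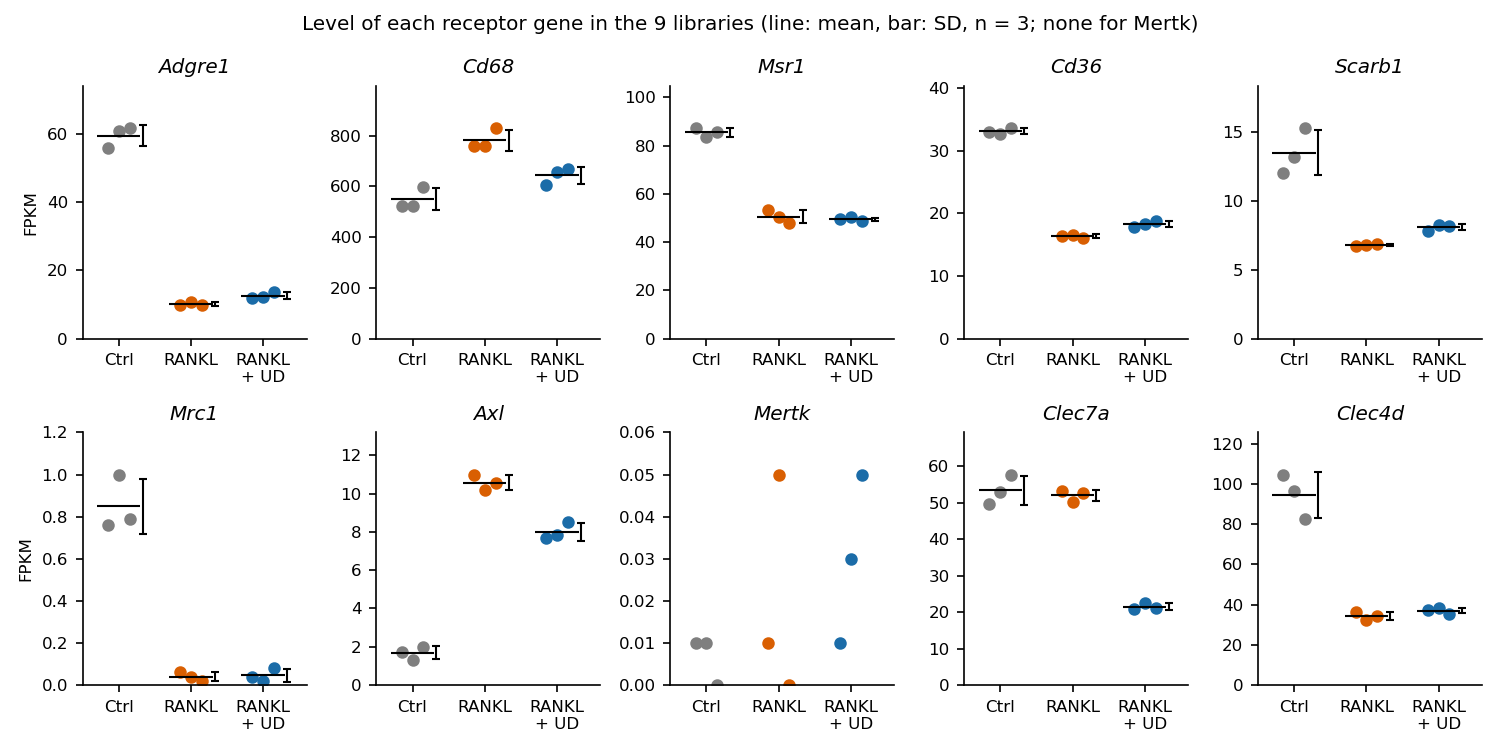
FPKM of each of the 10 genes (vertical axis, a separate scale from 0 per gene) in the 3 libraries of each group (points), with the group mean (line) and SD (bar), which are left out for Mertk. Among these 10, Clec7a is the gene whose RANKL libraries (50.2 to 53.0 FPKM) sit level with control and whose RANKL + UD libraries (20.7 to 22.6 FPKM) do not.

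RANKL alone lowered most of these receptors and raised a pair of them. Of the 8 members that reached 1 FPKM in 3 or more of the 9 libraries, 5 were lower (Adgre1, Clec4d, Cd36, Scarb1 and Msr1) and 2 were higher (Axl and Cd68) at an adjusted p under 0.05, and Clec7a did not pass. Among all 11995 genes tested, 57.6% passed, 27.3% higher and 30.2% lower, so calls in this comparison were common. Of the genes that passed, 47.5% were higher with TMM scaling and 36.8% with total counts. The median log2 fold change of the 8 members was -0.79, beside -0.03 for all genes. The groups did not overlap in FPKM for 61.7% of all genes. Log2 fold changes are from edgeR (quasi-likelihood), with p-values adjusted by Benjamini and Hochberg's method over all genes tested.

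Adgre1 (ENSMUSG00000004730, chromosome 17, 57665691 to 57790527), the adhesion receptor behind the F4/80 antigen, was at 55.9, 60.8 and 61.6 FPKM in control and at 9.75, 10.8 and 9.80 with RANKL. The groups were far apart, and the gene fell 5.52-fold (log2 fold change -2.47, standard error 0.066, edgeR adjusted p = 6.65e-18). Only 1.58% of tested genes had a lower log2 fold change. Cd68 (ENSMUSG00000018774, chromosome 11, 69555039 to 69556979), a heavily glycosylated protein of late endosomes and lysosomes, moved the other way, from 524, 524 and 599 FPKM to 759, 758 and 829.7. Every RANKL library was above every control library, and Cd68 rose 1.51-fold (log2 fold change 0.60, standard error 0.057, edgeR adjusted p = 1.07e-08). The 2 classical macrophage markers of the list therefore changed in opposite directions.

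The 3 scavenger receptors fell together. Msr1 (ENSMUSG00000025044, chromosome 8, 40034726 to 40095714), the class A receptor for modified LDL, had 87.3, 83.6 and 85.7 FPKM in control and 53.3, 50.5 and 47.8 with RANKL, a 1.59-fold fall (edgeR adjusted p = 1.14e-10). Cd36 (ENSMUSG00000002944, chromosome 5, 17986688 to 18093799), a class B receptor for oxidised LDL and long-chain fatty acids, had 33.02, 32.7 and 33.6 FPKM against 16.4, 16.6 and 16.1, a 1.90-fold fall (edgeR adjusted p = 2.44e-12). Scarb1 (ENSMUSG00000037936, chromosome 5, 125354151 to 125418158), the HDL receptor SR-BI, had 12.1, 13.2 and 15.3 FPKM against 6.70, 6.83 and 6.88, a 1.87-fold fall (edgeR adjusted p = 3.59e-10). In all 3 genes the RANKL libraries lay below the control libraries.

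Mrc1 (ENSMUSG00000026712, chromosome 2, 14234203 to 14336868), the mannose receptor of alternatively activated macrophages, was too low for the main test. It had 82, 126 and 80 counted reads in control (0.76, 1.00 and 0.79 FPKM), 8, 5 and 3 with RANKL, and 5, 2 and 9 with RANKL + UD. Without the expression filter, over 26736 genes, the fall with RANKL was 18.02-fold (log2 fold change -4.17, standard error 0.38, edgeR adjusted p = 8.79e-27). That fit gives far smaller p-values than the main fit, so the 2 are not comparable. For Adgre1 the edgeR adjusted p was 1.45e-274 without the filter and 6.65e-18 in the main fit. At 2 to 9 reads a library, a further difference between RANKL and RANKL + UD was not detectable (log2 fold change 0.05, 95% confidence interval -1.053 to 1.149).

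Axl (ENSMUSG00000002602, chromosome 7, 25456698 to 25488130), a TAM receptor kinase that binds Gas6 on phosphatidylserine, had 1.75, 1.31 and 1.97 FPKM in control, 11.0, 10.2 and 10.6 with RANKL, and 7.66, 7.81 and 8.51 with RANKL + UD. The 3 groups did not overlap. RANKL raised Axl 6.77-fold (log2 fold change 2.76, standard error 0.109, edgeR adjusted p = 5.29e-15), and 1.48% of tested genes had a higher log2 fold change. Its relative Mertk (ENSMUSG00000014361, chromosome 2, 128540876 to 128644814), the kinase that mediates dead-cell uptake in many tissue macrophages, had 0 to 4 counted reads in each of the 9 libraries and was treated as not measurable. The third TAM kinase, Tyro3, had at most 5. Axl was thus the TAM receptor with measurable transcript in these libraries.

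Among the bridging ligands of the TAM receptors, Pros1 (protein S) fell from 23.3 FPKM in control to 1.54 with RANKL (log2 fold change -3.83, edgeR adjusted p = 8.57e-18) and stood at 2.52 with RANKL + UD, which was higher than RANKL by 0.62 (edgeR adjusted p = 0.000334). Gas6 fell from 2.77 to 1.64 FPKM (log2 fold change -0.67, edgeR adjusted p = 0.0053) and was at 1.63 with RANKL + UD. Mfge8, which encodes a bridging protein for integrins, moved the other way, from 7.01 to 19.6 FPKM with RANKL (log2 fold change 1.57, edgeR adjusted p = 1.13e-13). The αv integrin gene Itgav, whose product binds that protein, rose by 2.27 with RANKL on the log2 scale. Of 2 genes for partners of αv, Itgb5 fell by 2.48 and Itgb3 rose by 3.20 (edgeR adjusted p = 1.28e-10). With added uridine Itgb3 was lower (-1.07). It reached 1 FPKM only in the RANKL libraries, at a mean of 1.44, so both of its values rest partly on that selection.

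The lectin receptors did not move alike. Clec4d (ENSMUSG00000030144, chromosome 6, 123239070 to 123252224), the receptor MCL for mycobacterial glycolipid, had 105, 96.6 and 82.4 FPKM in control and 36.2, 32.2 and 34.1 with RANKL. It fell 2.61-fold (log2 fold change -1.38, standard error 0.074, edgeR adjusted p = 8.65e-13). Clec7a (ENSMUSG00000079293, chromosome 6, 129438554 to 129449742), the β-glucan receptor Dectin-1, had 49.6, 52.8 and 57.7 FPKM in control and 53.0, 50.2 and 52.7 with RANKL. These groups overlapped. The log2 fold change was 0.05 with a 95% confidence interval of -0.07 to 0.17 (edgeR adjusted p = 0.465), and the gene did not pass the test.

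**Figure D2:**
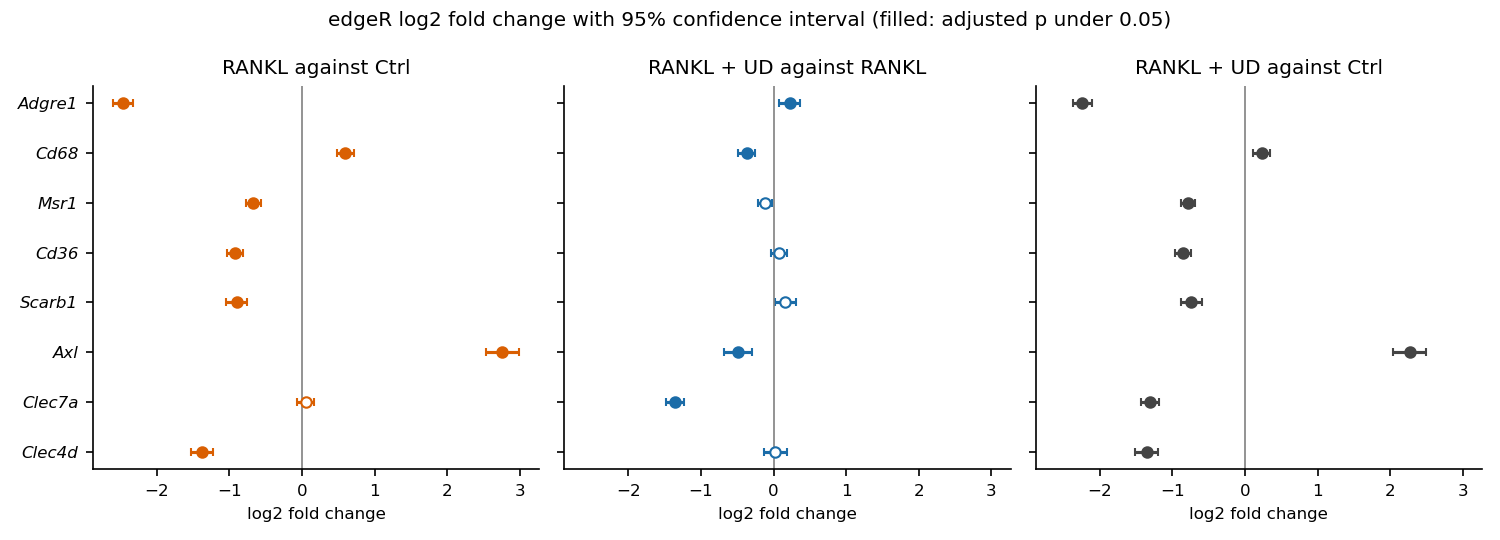
log2 fold change (horizontal axis) of the 8 tested genes in the 3 comparisons, with 95% confidence intervals from the edgeR fit and filled points where the adjusted p was under 0.05. Axl (2.76) and Adgre1 (-2.47) are the outermost points with RANKL, and Clec7a (-1.36) is the outermost point when uridine was added.

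Added uridine changed fewer of the receptors, and Clec7a changed most among them. Against RANKL alone, 3 of the 8 tested members were lower (Clec7a, Axl and Cd68), 1 was higher (Adgre1) and 4 did not pass. Over all genes 38.8% passed, 18.6% higher and 20.2% lower. The median of the 8 members was -0.04 on the log2 scale, beside 0.005 for all genes. The share of higher genes among those that passed was 48% with TMM scaling and 66.2% with total counts, so small differences in this comparison depend on how the libraries are scaled.

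Clec7a had 20.7, 22.6 and 21.1 FPKM with RANKL + UD, all far below the 50.2 to 53.0 of the RANKL libraries and the 49.6 to 57.7 of control. The fall against RANKL was 2.57-fold (log2 fold change -1.36, standard error 0.060, edgeR adjusted p = 7.43e-13), and against control it was 2.48-fold (edgeR adjusted p = 6.89e-14). Only 1.17% of tested genes, 140 in number, had a lower log2 fold change against RANKL, and across the 14 alternative settings Clec7a stayed between -1.40 and -1.24. Genes that passed with a fall of over 2-fold were 1.79% of all genes. With a fold of over 1.5 required, 5.49% of all genes were lower and 4.38% higher, and Clec7a was the only member that met it. The member that uridine lowered most was therefore one that RANKL had left near its control level. No group received uridine alone, so a fall that needs RANKL cannot be told apart from one that does not.

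Axl and Cd68, which RANKL had raised, were lower with uridine. Axl fell 1.41-fold against RANKL (log2 fold change -0.49, standard error 0.092, edgeR adjusted p = 0.000237) and remained 4.82-fold above control (edgeR adjusted p = 2.21e-13). Cd68 went to 606, 657 and 668 FPKM, a 1.29-fold fall against RANKL (log2 fold change -0.37, standard error 0.057, edgeR adjusted p = 2.63e-05). It remained 1.17-fold above control (edgeR adjusted p = 0.00173), although its lowest RANKL + UD library, at 606 FPKM, was close to the highest control library at 599.

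Adgre1 was at 12.0, 12.1 and 13.6 FPKM with RANKL + UD, above the RANKL libraries and well under control. It rose 1.17-fold against RANKL (log2 fold change 0.22, standard error 0.069, edgeR adjusted p = 0.0142) and remained 4.73-fold below control. This call was lost without RANKL replicate 1 (0.20, edgeR adjusted p = 0.0561) and without RANKL + UD replicate 3 (0.16, edgeR adjusted p = 0.105).

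The remaining 4 genes did not pass against RANKL. Clec4d, at 37.3, 38.1 and 35.5 FPKM, overlapped with the RANKL libraries (log2 fold change 0.03, 95% confidence interval -0.13 to 0.19, edgeR adjusted p = 0.828). Msr1, at 49.4, 50.2 and 48.9 FPKM, also overlapped (-0.12, interval -0.22 to -0.01, edgeR adjusted p = 0.0656). It passed as lower in 4 of the 14 alternative settings, among them DESeq2, the tool the study names (-0.13, DESeq2 adjusted p = 0.0302). Cd36, at 17.7, 18.3 and 18.8 FPKM, and Scarb1, at 7.84, 8.27 and 8.18, lay above all RANKL libraries in FPKM, a separation in either direction shown by 51.7% of all genes. After TMM scaling the difference was 0.07 for Cd36 (interval -0.04 to 0.19, edgeR adjusted p = 0.306) and 0.16 for Scarb1 (interval 0.02 to 0.31, edgeR adjusted p = 0.0733). With total counts both passed as higher (edgeR), at 0.16 for Cd36 (adjusted p = 0.0227) and 0.25 for Scarb1 (adjusted p = 0.00752).

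**Figure D3:**
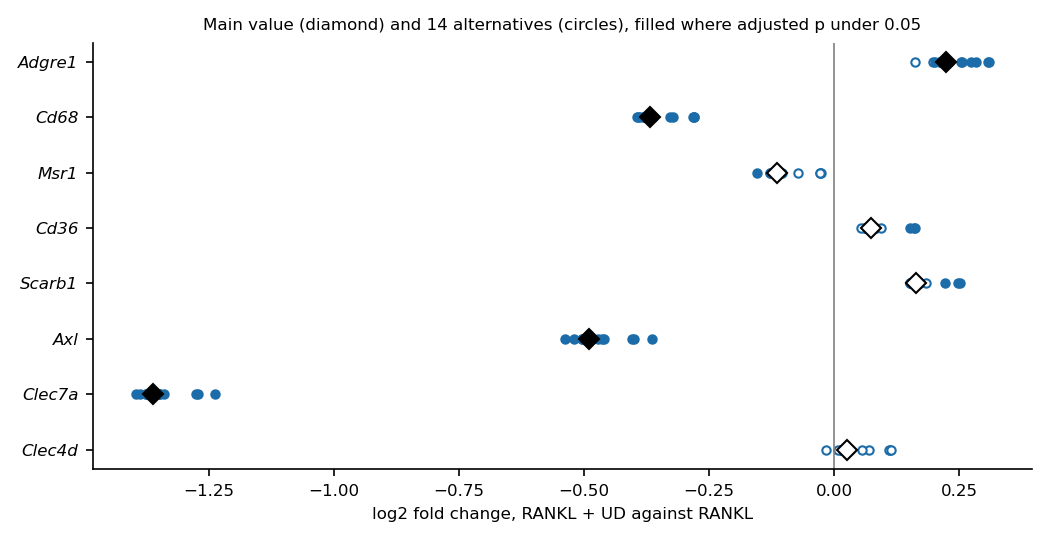
log2 fold change of RANKL + UD against RANKL (horizontal axis) for the 8 tested genes under the main setting (diamonds) and 14 alternative settings (circles), filled where the adjusted p was under 0.05. Clec7a, Axl and Cd68 are filled throughout, whereas Msr1, Cd36 and Scarb1 are filled under 4, 3 and 5 of the alternatives and Clec4d under none.

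Compared with untreated cells, the cells given both agents had 6 of the 8 tested members lower and 2 higher (54% of all genes passed, 26.7% higher and 27.3% lower, and the groups did not overlap in FPKM for 59.9%). Axl was also higher by over 1.5-fold, as were 9.3% of all genes. The log2 fold changes were -2.24 for Adgre1, -1.36 for Clec4d, -1.31 for Clec7a, -0.85 for Cd36, -0.79 for Msr1 and -0.74 for Scarb1, and 2.27 for Axl and 0.23 for Cd68. These comparisons share libraries, so the 3 sets of values are not independent of each other.

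The members were chosen for related functions, so shared annotation follows in part from that choice. In the deposited table, 8 of the 10 carry the term plasma membrane and 3 (Axl, Cd36 and Mertk) the term apoptotic cell clearance. The KEGG phagosome pathway is assigned to 5 of them, Cd36, Clec7a, Mrc1, Msr1 and Scarb1. Of those 5, Cd36, Msr1 and Scarb1 fell with RANKL in the main test, Mrc1 fell without the expression filter, and Clec7a changed with uridine.

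Both lectin genes lie on chromosome 6 among other lectin genes. Within 200000 bases of Clec4d, 4 of 13 other genes were tested. The start site of Clec4e, which encodes the receptor Mincle and is the known partner of Clec4d, lies 27.8 kb away on the other strand, and Clec4e fell with RANKL from 57.9 to 22.4 FPKM (log2 fold change -1.28, edgeR adjusted p = 3.61e-15), close to the -1.38 of Clec4d. With uridine neither passed. On the other side, Clec4n (Dectin-2) rose by 2.16 with RANKL (edgeR adjusted p = 3.26e-10) and the inhibitory receptor gene Clec4a2 by 3.11 (edgeR adjusted p = 3.45e-19). The last of them, Gm44132, is a predicted gene of at most 7 reads a library that lies inside Clec4a2 on the same strand, and its values are uncertain. Around Clec7a, 2 of 21 other genes were tested. Clec12a, an inhibitory receptor gene, rose by 0.73 with RANKL and was lower by 0.26 with added uridine (edgeR adjusted p = 7.42e-05). Gabarapl1, an autophagy gene, was lower by 0.36 with RANKL (edgeR adjusted p = 0.001045). With added uridine it was lower by a further 0.40 (edgeR adjusted p = 0.00121).

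**Figure D4:**
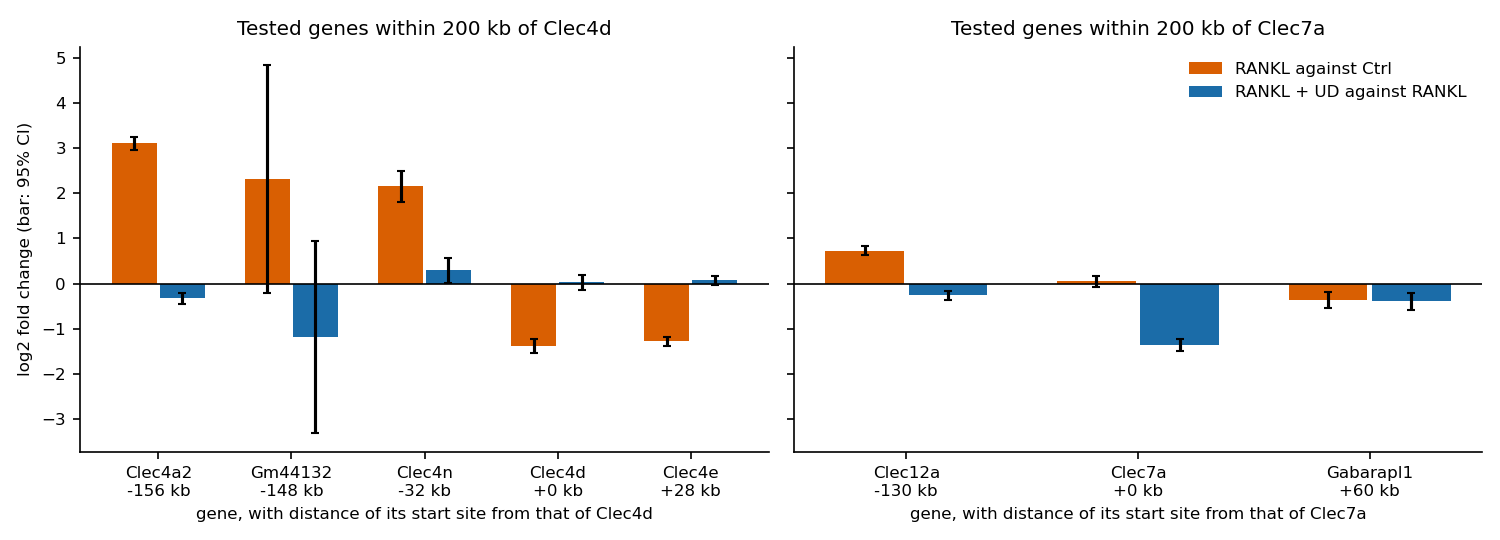
log2 fold change (vertical axis, with 95% confidence intervals) of the tested genes within 200 kb of Clec4d (left) and Clec7a (right), ordered by the distance of their start sites. Clec4d and Clec4e are lower with RANKL (-1.38 and -1.28) while Clec4n and Clec4a2 are higher, and Clec7a has the longest blue bar that is clear of 0 (-1.36).

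Genes of lectin receptor signalling also changed. With RANKL the Fc receptor γ chain gene Fcer1g was lower by 0.57 and Card9 by 0.49, while Syk was higher by 0.97. With added uridine Syk (-0.32, edgeR adjusted p = 2.63e-05) and Card9 (-0.32, edgeR adjusted p = 0.00137) were lower, and Fcer1g was at -0.12 (edgeR adjusted p = 0.255). The counts of the lists that follow stand beside 27.3% of all genes higher and 30.2% lower with RANKL, and 18.6% higher and 20.2% lower with added uridine. With total counts, where 66.2% of the genes that passed in the uridine comparison were higher, 8 list genes in all were higher in place of 3. In the list of 18 other lectin receptor and signalling genes, 13 were tested. With RANKL 7 were higher and 6 lower. With added uridine 0 were higher and 8 lower, led by Clec5a (-0.73), Clec10a (-0.69) and Malt1 (-0.59), and the median was -0.26.

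Most tested genes of the scavenger receptor list were lower in the uridine comparison. Of 14 listed genes 6 were tested, and Marco, Cd163 and Scara5 had 0 counts in every library. With RANKL 3 were lower, among them Cxcl16 (-3.11) and Colec12 (-1.04), and 2 were higher, Cd5l (1.76) and the endocytic receptor gene Lrp1 (0.52). With added uridine 5 were lower, led by Cd5l (-2.44), Scarf1 (-0.87) and Lrp1 (-0.73). Cd5l had 8 to 79 reads a library over the 9 libraries and reached 1 FPKM only in the RANKL libraries. It entered the test through the group where it was high, so its rise and its fall rest partly on that selection. Scarb2, which encodes the lysosomal membrane protein LIMP-2, was higher by 0.49 (edgeR adjusted p = 4.73e-07). Scarb2 and Scarb1 thus both fell with RANKL, by 0.67 and 0.90 on the log2 scale. With uridine Scarb2 passed as higher and Scarb1, at 0.16, did not, a difference that was not tested.

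Of 18 genes for the uptake of apoptotic cells, 12 were tested, with 4 higher and 8 lower with RANKL, and 1 higher (Pros1) and 6 lower with added uridine. Itgav (-0.78) fell most in the latter. Cd300lf, among the 8 lower with RANKL, reached 1 FPKM only in control, where it was high. Its fall rests partly on that selection. All 16 further macrophage identity genes were tested. RANKL lowered 13, among them Siglec1 (-4.22) and Fcgr1 (-3.90), and raised 3, among them Cd80 (1.30). The median was -1.59, beside -0.79 for the 8 receptor genes. Siglec1 and Cd86 reached 1 FPKM only in control, the group where they were high, so their falls rest partly on that selection. Added uridine lowered 10, among them Lgals3 (-0.99) and Mpeg1 (-0.71), and raised Cd80 (0.17, edgeR adjusted p = 0.0313). The rise of Adgre1 in this comparison therefore stood beside falls in most of the other identity genes. Of 10 genes for the handling of lipid taken up by scavenger receptors, 7 were tested. With RANKL 4 were higher and 3 lower, and with uridine 0 were higher and 5 lower, led by the tetraspanin gene Cd9 and the cholesterol exporter gene Abca1 (both -0.65) and Fabp5 (-0.58). The Cd36 regulator Pparg and the SR-BI adaptor Pdzk1 had at most 13 and 8 reads in any library and were not tested.

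**Figure D5:**
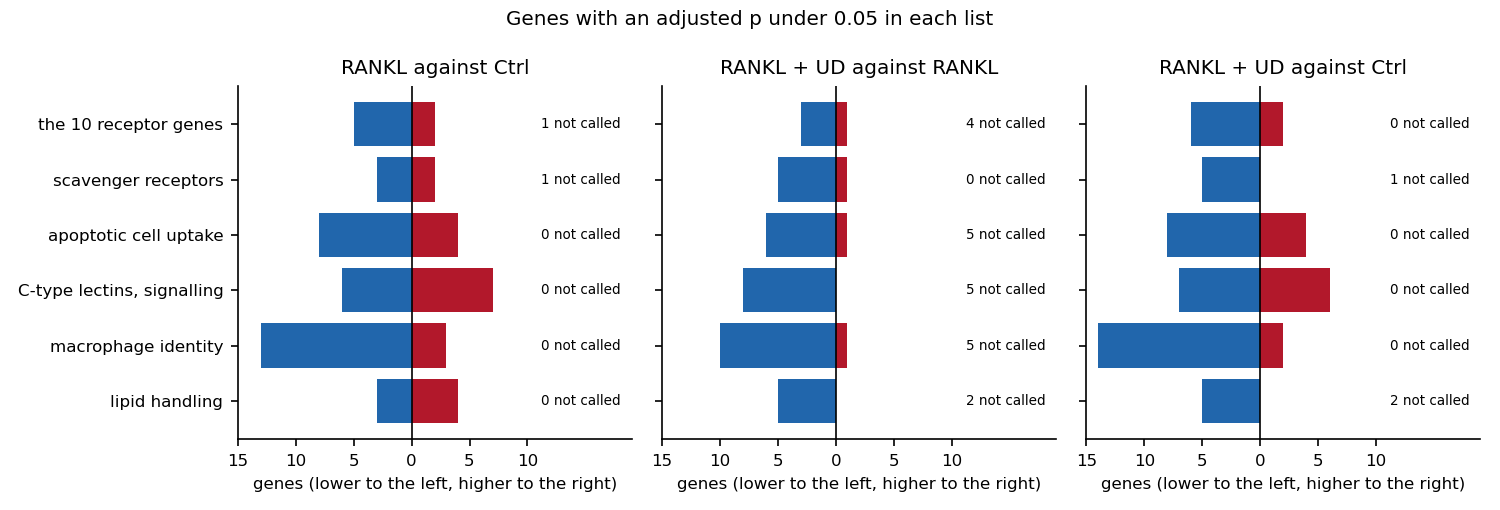
Number of tested genes with an adjusted p under 0.05 in each list (lower to the left in blue, higher to the right in red) in the 3 comparisons, with the number that did not pass written at the right. With added uridine and TMM scaling, the lower genes outnumber the higher ones in every list, for example 8 against 0 among C-type lectin and signalling genes. With total counts this did not hold for the receptor genes: Adgre1, Cd36 and Scarb1 were higher, and Clec7a, Axl and Cd68 lower.

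For each of the 8 tested members the 2 genes with the most similar course over the 9 libraries were sought by Pearson correlation of log2 CPM, which here mostly reflects the 3 group means. Tlr2 (r = 0.998) was among the 2 for Adgre1 and Rassf4 (r = 0.999) among the 2 for Cd36. Msr1 was closest to Naip5 (r = 0.998) and Lins1 (r = 0.997), and Clec4d to Slfn4 (r = 0.995) and Macir (r = 0.995). Scarb1 was closest to Psat1 (r = 0.994) and Nab1 (r = 0.993), Axl to Arl8b (r = 0.998) and Atxn10 (r = 0.997), and Cd68 to Tbc1d10b (r = 0.991) and Akr1a1 (r = 0.989). Clec7a was closest to Gm7592 (r = 0.995), a gene at 2.85, 2.84 and 0.67 FPKM in control, RANKL and RANKL + UD, and to Aldh18a1 (r = 0.994) at 35.3, 33.3 and 25.9. Both were lower with RANKL + UD than in the other groups. Against control, RANKL + UD gave 0 higher and 5 lower of the 6 scavenger receptors and 4 and 8 of the 12 uptake genes. It gave 6 and 7 of the 13 lectin genes, 2 and 14 of the 16 identity genes and 0 and 5 of the 7 lipid genes. Over all genes 26.7% were higher and 27.3% lower. Siglec1, Cd86 and Cd300lf, among the lower genes, reached 1 FPKM only in control, so they rest partly on that selection.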

How the data were processed

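RNA was poly(A)-selected into strand-specific libraries and sequenced on the Illumina NovaSeq platform per the labels and the methods. Counts per gene were deposited by the authors without normalization, and FPKM values, which the authors deposited beside them, were recomputed from count, exonic length and library total to within 0.0051 for 100% of genes. Aligner, counting tool and strand setting are not given in the sources used here. The submitters' processing notes name mm10, whereas 1435 of 52073 genes shared with the GRCm38 annotation had identical coordinates. The 10 members kept their span at shifted positions, so gene coordinates are as deposited, of a build not settled here, and promoter coordinates are GRCm38.p6. No member overlapped another gene with more than 5 reads in any library.

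Genes reaching 1 FPKM in 3 or more libraries (11995) were tested with edgeR 4.0.16 in R 4.3.3 (quasi-likelihood, TMM, all 9 libraries in one fit, Benjamini-Hochberg adjustment). Standard errors are the log2 fold change divided by the root of its F statistic. The study names DESeq2, which was run as an alternative (1.42.0), as were limma 3.58.1 on log2(FPKM + 1) and log2(FPKM + 0.1), RLE size factors, total counts, no filter, only 6 libraries, a replicate block, and each library left out. The procedure was run on simulated counts in which few genes were changed, in RANKL + UD only. That setting does not cover changes as broad as those seen here. With 3 libraries a group, counts and SDs measure the spread between these libraries, which the labels call biological replicates without saying whether they were separate cultures. Members and lists were chosen with earlier results of these data known. From each list up to 3 called genes with the largest change in each comparison, the largest in the other direction, and ligands, adaptors and sister receptors of members are named; neighbours lie within 200000 bases. All 18 value columns were matched to a library. Some genes that these rules select are not reported here.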

Additional observations from a re-analysis of the deposited data

How the results depend on the processing

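Against RANKL, the number of members higher with RANKL + UD was 1 in the main fit, 3 with total counts, with limma on log2(FPKM + 1) and with limma on log2(FPKM + 0.1), 2 with only the 6 libraries, 0 to 1 with a library left out, and 0 with a fold of over 1.5 required. Of the lower members, 1 remained of 3 under that fold, Clec7a. With the same fold, members higher than control in RANKL + UD numbered 1 in place of 2, and the list genes numbered 12 higher with RANKL (20 in the main fit), 1 higher and 14 lower with RANKL + UD against RANKL (3 and 34) and 7 higher against control (12). The list genes higher against RANKL numbered 8 with total counts, 5 with either limma setting and 2 to 4 with a library left out. Correlations of deviations from the group mean were -0.0194 to 0.0984 for same-numbered libraries and -0.102 to 0.0464 for others. All were weak, and they do not settle whether the replicate numbers pair the libraries. With the replicate block the higher members against RANKL numbered 2 and the lower members 4, as Scarb1 and Msr1 then passed.

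Signs turned in values that did not pass: Clec7a with RANKL (-0.038 with total counts, -0.034 with limma on log2(FPKM + 1), -0.035 with limma on log2(FPKM + 0.1)), Clec4d with uridine (-0.016 to 0.0698 with a library left out), Gas6 with uridine (0.0019 with limma on log2(FPKM + 0.1), -0.22 to 0.079 with a library left out), and Gm44132 against control (-3.19 to 4.29 with a library left out). The cause was not tested. Calls of the 8 tested members kept their side of the threshold in 322 of 336 alternative values, 4 of them with the opposite sign, while 2 were lost and 12 gained. Total counts moved the median of all genes by less than 0.1 in each comparison. The depth limits Mrc1 and Mertk, with under 10 reads in each RANKL and RANKL + UD library.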
